A study of Mus musculus with 2 samples.

Results

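SR proteins and heterogeneous nuclear ribonucleoproteins (hnRNPs) are the main families of RNA-binding proteins that decide which exons of a pre-mRNA are kept. Their genes were examined here in spinal microglia profiled by single-cell RNA-Seq (scRNA-Seq). Members were the genes whose symbol was Srsf followed by a digit or began with Hnrnp, leaving out processed pseudogenes marked -ps, of which 0 matched. This gave 31 of the 32285 genes in the count tables: 11 SR protein genes and 20 hnRNP genes.

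The series holds 2 libraries, 1 for each genotype. WT is the label of the control library, from Eif4ebp1fl/fl mice, and 4E-BP1 cKO is the label of the library from Eif4ebp1fl/fl:TMEM119CreERT2 mice, in which CreERT2 under the Tmem119 promoter removes a part of Eif4ebp1, the gene of a repressor of cap-dependent translation, in microglia. Mice were male and 8 to 10 weeks old, and 4-OHT, the ligand that activates CreERT2, had been injected on each day from P4 to P9. Live CD45lo CD11bhi CX3CR1hi single cells were sorted from the spinal cord, and the number of mice behind each library was not stated. The genotypes could not be tested against each other on 1 library each, and genotype, animals, sort and library cannot be told apart. Intervals below are exact 95% intervals that cover counting error only.

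Cells were kept if over 300 genes were detected and mitochondrial UMIs made up under 5%, a UMI being the tag of 1 captured mRNA molecule. They were 1147 of 1216 barcodes in WT, with 4803562 UMIs, and 445 of 474 in 4E-BP1 cKO, with 1734332 UMIs. No barcode was shared between the libraries. Cells were placed by their ribosomal share, the percent of their UMIs from 86 ribosomal protein genes, into 4 classes: under 3%, 3 to 8%, 8 to 14%, and at least 14%. The classes held 657, 346, 110 and 34 cells in WT and 211, 145, 67 and 22 cells in 4E-BP1 cKO. Median UMIs per cell moved with the classes, from 2354 under 3% to 7066 at 8 to 14% in WT and from 1964 to 4755 in 4E-BP1 cKO. All 10 microglial markers were detected in both libraries, at a summed 10309 CPM (UMIs of a gene scaled to a constant total) in WT and 9923 CPM in 4E-BP1 cKO. Of these, Tmem119, whose promoter drives CreERT2, had 433 CPM (2082 UMIs) in WT and 142 CPM (247 UMIs) in 4E-BP1 cKO. It was lower in 4E-BP1 cKO in each class, the other markers differed less, and the cause was not tested. The sum of the markers also moved with the ribosomal share, from 7177 CPM under 3% to 12806 CPM at 3 to 8% in WT and from 6916 to 12046 CPM in 4E-BP1 cKO, and its part in the differences below was not tested. The sums of markers of other cell types stayed between 0.577 and 120 CPM in each library. By class they reached 198 CPM, for oligodendrocyte markers at 3 to 8% in 4E-BP1 cKO, beside 70.0 CPM under 3% and 59.2 CPM at 8 to 14%. In WT the 3 to 8% class held 191 of the 296 UMIs of endothelial markers. The at least 14% class of 4E-BP1 cKO held 11 of the 12 T cell marker UMIs of its library and 7 of the 11 UMIs of border-associated macrophage markers. It had only 22 cells in all, so that its values are given with this limit.

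SR proteins bind exonic enhancer sequences through RNA recognition motifs and recruit the splicing machinery through a domain of arginine and serine repeats, which SRPK and CLK kinases phosphorylate. hnRNPs coat nascent RNA and often oppose them by masking splice sites and exons, and several also act in mRNA export, stability and translation. Members of both families bind their own transcripts and limit their own levels through exons that lead to decay of the mRNA.

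Promoter windows are shown for members described below whose start is given once in the RefSeq table of build GRCm38.p6 (29 of 31 members matched; Hnrnpll and Hnrnpul2 did not), so that genes that were higher in cells of high ribosomal share can be read beside genes that were lower or showed neither. Each run is 5′ to 3′ and holds 100 bases before the annotated start and 20 from it on. Capitals mark, on either strand, the letters of a CCAAT box (CCAAT), a GC box (GGGCGG), an ETS core (CCGGAA), an NRF1 core (GCATGCGC) or a TATA box (TATAAA), some of which overlap each other. The first 4 lines are genes higher at high ribosomal share in both libraries, the next pair were lower, and the last pair are the SR protein genes with the highest summed counts.
Hnrnpa1 (chr15:103240297-103240416, + strand): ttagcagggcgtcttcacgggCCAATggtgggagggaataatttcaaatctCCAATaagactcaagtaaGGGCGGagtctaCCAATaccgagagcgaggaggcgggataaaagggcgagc
Hnrnpab (chr11:51606862-51606981, - strand): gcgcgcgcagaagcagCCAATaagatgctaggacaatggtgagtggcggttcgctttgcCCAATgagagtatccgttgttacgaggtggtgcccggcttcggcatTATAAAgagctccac
Hnrnpk (chr13:58402098-58402217, - strand): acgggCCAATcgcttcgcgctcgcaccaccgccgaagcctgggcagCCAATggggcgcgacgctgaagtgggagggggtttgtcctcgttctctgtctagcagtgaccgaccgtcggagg
Srsf9 (chr5:115327077-115327196, + strand): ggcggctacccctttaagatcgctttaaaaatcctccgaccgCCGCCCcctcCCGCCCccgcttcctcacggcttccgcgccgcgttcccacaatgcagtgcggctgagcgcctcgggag
Hnrnph3 (chr10:63023830-63023949, - strand): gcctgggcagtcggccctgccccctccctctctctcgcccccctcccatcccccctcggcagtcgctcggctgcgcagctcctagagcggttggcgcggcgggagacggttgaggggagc
Hnrnpc (chr14:52104002-52104121, - strand): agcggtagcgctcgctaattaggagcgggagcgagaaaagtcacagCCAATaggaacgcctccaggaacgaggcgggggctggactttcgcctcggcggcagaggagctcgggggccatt
Srsf2 (chr11:116853075-116853194, - strand): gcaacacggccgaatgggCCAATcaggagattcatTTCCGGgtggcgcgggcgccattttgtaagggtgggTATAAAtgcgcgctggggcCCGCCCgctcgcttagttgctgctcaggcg
Srsf3 (chr17:29032560-29032679, + strand): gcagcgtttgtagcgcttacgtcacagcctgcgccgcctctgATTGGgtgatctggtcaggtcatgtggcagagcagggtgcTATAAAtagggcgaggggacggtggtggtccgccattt

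In the window of 250 bases before to 50 bases after each start, 24 of 29 members held a GC box in at least 1 window, or 82.8%, beside 45.8% of the 20267 genes with a window. These genes of the count tables were taken with no minimum of UMIs, so that the members are not set against genes of like level. A CCAAT box was found in 17 members (58.6%, beside 41.7% of all genes) and an ETS core in 12 (41.4%, beside 19.6%). The NRF1 core was found in 3 (10.3%, beside 3.68%). TATA box letters were found in 4 members (13.8%, beside 14.6%), among them Hnrnpab and the serine- and arginine-rich factors Srsf2 and Srsf3 in the runs above. They lie before the annotated start in Srsf2 and Srsf3 and after it in Hnrnpab. A C followed by at least 4 pyrimidines within 5 bases of the start, the letters at the head of ribosomal protein mRNAs, was found in 30 of 66 ribosomal protein genes (45.5%), in 5 members (17.2%) and in 21.7% of all genes. The 5 were Hnrnpa0, Hnrnpa3, Hnrnpr, Srsf1 and Srsf5. A match of letters is a description and not a bound site.

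Every member had UMIs in both libraries, but Srsf12 had only 2 in 4E-BP1 cKO, fewer than the 3 UMIs taken as a floor. Levels ranged over more than 100-fold because of Srsf12. Without it they ran from 29.8 to 492 CPM in WT and from 27.7 to 581 CPM in 4E-BP1 cKO. Hnrnpa2b1, whose product packages pre-mRNA and sorts RNAs for transport, was highest in both libraries, with 2363 UMIs or 492 CPM (472 to 512) in WT and 1008 UMIs or 581 CPM (546 to 618) in 4E-BP1 cKO. Hnrnpc, which binds uridine tracts and is confined to the nucleus, followed in WT at 332 CPM (316 to 349) and stood at 319 CPM (293 to 347) in 4E-BP1 cKO. Srsf2, a nuclear SR protein of enhancer-dependent exons, had 307 CPM (291 to 323) in WT and 333 CPM (306 to 361) in 4E-BP1 cKO. These are counts of captured 3′ ends and not levels per length.

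Next came Hnrnpa3, with 282 CPM in WT and 300 CPM in 4E-BP1 cKO, and Hnrnpk, a binder of C-rich RNA, with 256 and 314 CPM. Among SR protein genes, Srsf3, the smallest SR protein and an adaptor of mRNA export, had 244 CPM in WT and 284 CPM in 4E-BP1 cKO, Srsf11 had 243 and 277 CPM, and Srsf5 had 202 and 250 CPM. The lowest levels were those of Srsf1, the founding member of the family, at 29.8 CPM (25.1 to 35.1) in WT and 27.7 CPM (20.4 to 36.7) in 4E-BP1 cKO, and of Srsf12, with 14 UMIs in WT and 2 in 4E-BP1 cKO. Of the 30 pairs of neighbours in the order of levels, the intervals did not overlap in 5 in WT and in 2 in 4E-BP1 cKO. In both libraries Hnrnpa2b1 stood apart above the next gene, and Srsf1 above Srsf12, while most other neighbours did not differ beyond counting error.

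**Figure D1:**
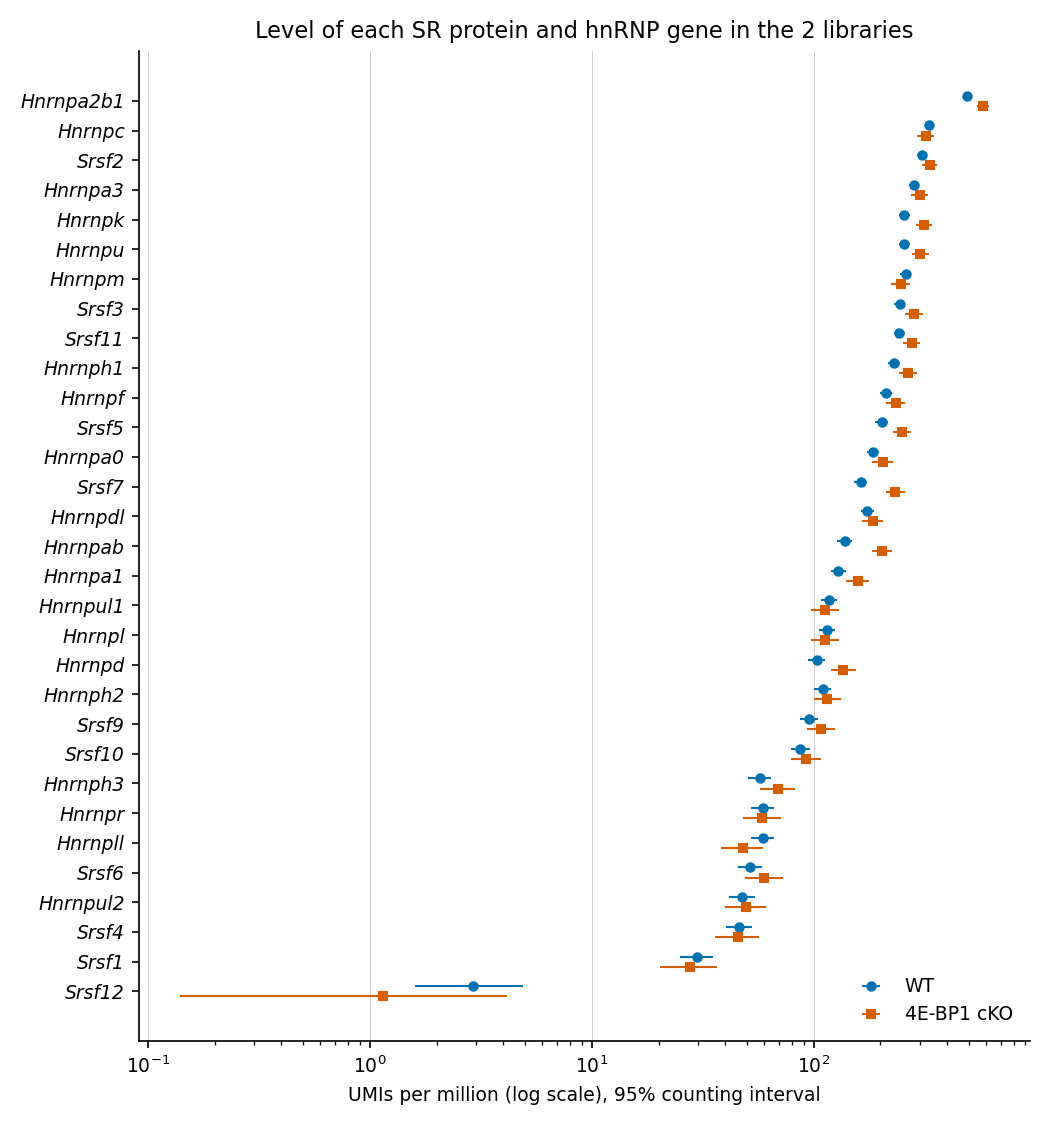
Level of each of the 31 genes in CPM on a log axis, in WT (circles) and 4E-BP1 cKO (squares), with exact 95% Poisson intervals. Hnrnpa2b1 is highest in both libraries at 492 and 581 CPM, and Srsf12 rests on 14 and 2 UMIs.

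How often a member was seen in a cell followed these levels. Hnrnpa2b1 had a UMI in 68.3% of WT cells (65.5 to 71.0) and 68.8% of 4E-BP1 cKO cells (64.2 to 73.0), and Srsf12 in 0.785% (0.359 to 1.48) and 0.449% (0.0545 to 1.61). The median over the 31 members was 32.1% in WT and 38.7% in 4E-BP1 cKO. With each cell thinned to 872 UMIs, leaving out 89 shallower cells in WT and 70 in 4E-BP1 cKO, these medians were 10.3% and 14.9%. Genes that microglia should lack gave the background: Mbp, of oligodendrocyte myelin, was seen in 10.2% and 14.8% of cells before thinning and in 2.36% and 3.47% after it, at median depths of 3053 and 2776 UMIs. Srsf1, seen in 10.1% of WT cells and 9.66% of 4E-BP1 cKO cells, and Srsf12 were no higher than Mbp, so that their shares are not told apart from that background. Mbp was the highest of the background genes, and Srsf1 was above Aqp4 and Snap25, while Srsf12 was below Aqp4. Hnrnpll in 4E-BP1 cKO was seen in 13.5% of cells before thinning, below Mbp, and in 5.07% after it. Aqp4 of astrocytes was seen in 1.83% and 1.57% of cells, and Snap25 of neurons in 0.349% and 0.225%.

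Summed over each family and relative to its level, the SR protein genes varied more over the 4 classes of ribosomal share than the hnRNP genes. In WT this came from the class of at least 14%, and under 14% the 2 families varied about alike. The totals behind these CPM include the ribosomal protein UMIs that set the classes. Their median share in WT was 1.28% under 3% and 17.0% at 14% or more, which by itself lowers the CPM of other genes. Family sums were not computed with other totals, so the difference between the families holds for this scaling only. The 20 hnRNP genes together gave 3418 CPM (3335 to 3503) in WT cells under 3%, 3714 CPM (3628 to 3802) at 3 to 8%, 3856 CPM (3725 to 3991) at 8 to 14% and 3506 CPM (3250 to 3777) at 14% or more. In 4E-BP1 cKO their sum was 3903 CPM (3741 to 4071), 4195 CPM (4044 to 4350), 3888 CPM (3685 to 4099) and 3932 CPM (3593 to 4293). The 11 SR protein genes gave 1400, 1595, 1445 and 1093 CPM in WT and 1665, 1909, 1627 and 1062 CPM in 4E-BP1 cKO. In both libraries the SR sum was highest at 3 to 8% and lowest at 14% or more, where it rested on 217 and 134 UMIs. The intervals of these 2 classes did not overlap, with 1539 to 1653 CPM against 953 to 1249 CPM in WT and 1808 to 2014 CPM against 890 to 1258 CPM in 4E-BP1 cKO.

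Cell by cell the shares of the families had almost no rank correlation with the ribosomal share. The shares were also taken of all UMIs, with the ribosomal protein UMIs included, and no other total was tried. A rank correlation sees steady rises or falls, and can miss a peak in a middle class such as that of the SR sum. Spearman's rho over 1147 WT cells was 0.0096 for the SR genes and 0.070 for the hnRNP genes, and over 445 cells of 4E-BP1 cKO it was −0.055 and −0.012. These points share their library, and the same shares had rho of 0.091 to 0.151 with the UMIs of the cell. The median cell of the under 3% class gave 12.8 SR and 32.8 hnRNP UMIs per 10000 in WT, and 14.9 and 37.5 in 4E-BP1 cKO. In the next classes in ascending order the median SR value was 14.3, 13.9 and 9.56 in WT and 15.7, 14.9 and 10.3 in 4E-BP1 cKO.

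**Figure D2:**
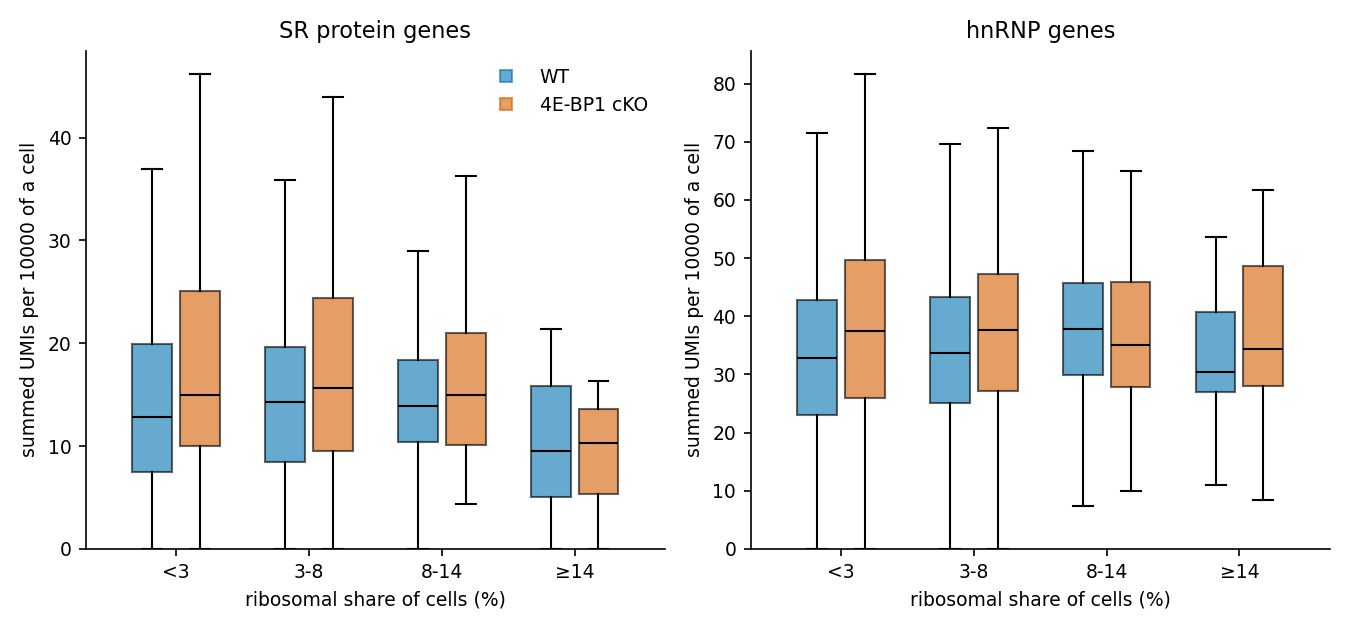
Summed SR protein gene UMIs (left) and hnRNP gene UMIs (right) per 10000 UMIs of each cell, by ribosomal share and library; boxes span the quartiles with the median as a line, whiskers reach up to 1.5 times the box, and cells beyond are not drawn. The boxes of all classes overlap, and the median SR share is lowest at 14% and above, at 9.56 in WT and 10.3 in 4E-BP1 cKO.

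Within the families the members went different ways. Cells of at least 8% ribosomal share (110 at 8 to 14% and 34 above in WT, and 67 and 22 in 4E-BP1 cKO) were set against cells under 3%, as the log2 ratio of CPM + 1, and members with at least 20 UMIs in the cells compared were counted, which left out Srsf12. In WT 9 of 30 members were past 1.5-fold, 8 higher and 1 lower, beside 55.3% of the 9746 genes at that minimum (20.4% higher and 34.8% lower). In 4E-BP1 cKO 14 of 30 were past it, 5 higher and 9 lower, beside 59.5% of 6306 genes (21.7% higher and 37.8% lower). The split between higher and lower depended on the scaling in 4E-BP1 cKO. With the totals taken without ribosomal protein and mitochondrial genes, 8 members were higher and 4 lower in 4E-BP1 cKO, beside 26.2% and 30.1% of genes, and with TMM factors (edgeR's trimmed mean of log ratios) 10 were higher and 1 lower, beside 27.9% and 26.7%. In WT the same scalings gave 8 higher and 1 lower, beside 24.7% and 27.7%, and 10 higher and 1 lower, beside 26.3% and 25.9%. Among genes with at least 200 UMIs the counts were 8 of 29 members beside 56.6% in WT and 14 of 29 beside 60.4% in 4E-BP1 cKO. At the minimum of 20 UMIs, the median log2 ratio of the 30 members was 0.09 in WT and 0.00 in 4E-BP1 cKO, beside −0.25 and −0.30 for all genes. Of the 30, 22 and 20 lay above the median of all genes. By family the median was −0.07 and −0.20 for 10 SR protein genes and 0.18 and 0.08 for 20 hnRNP genes, and with TMM factors it was 0.14 and 0.06 for the SR protein genes and 0.40 and 0.33 for the hnRNP genes.

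Past 1.5-fold in the same direction in both libraries were 6 of 30 members (20%), beside 41.7% of 6300 genes. Higher were Hnrnpa1, Hnrnpab, Hnrnpd, Hnrnpf and Srsf9 (16.2% of all genes were), and lower was Hnrnph1 (25.5%). The call on Hnrnph1 was lost with the other 2 scalings, where its log2 ratio in 4E-BP1 cKO was −0.55 and −0.48, while Hnrnpk and Srsf1 passed, and with TMM factors Hnrnpa0 as well. With cells thinned to 872 UMIs, Hnrnpab was the only one of the 6 that passed, beside Srsf11 and Hnrnph3, both lower. At any size, 23 of 30 members had the same sign in both libraries, beside 83% of all genes, with 12 higher and 11 lower. With these scalings the median of all genes moved up by 0.16 to 0.25, and 12 members stayed higher and 7 lower in both libraries under all 3 scalings. The other 11 took both signs over the libraries and scalings. Hnrnpdl, named after its values were seen, had opposite signs, with −0.44 in WT (fold 0.603 to 0.896) and 0.40 in 4E-BP1 cKO (0.965 to 1.80), and only the first interval left out 1.

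**Figure D3:**
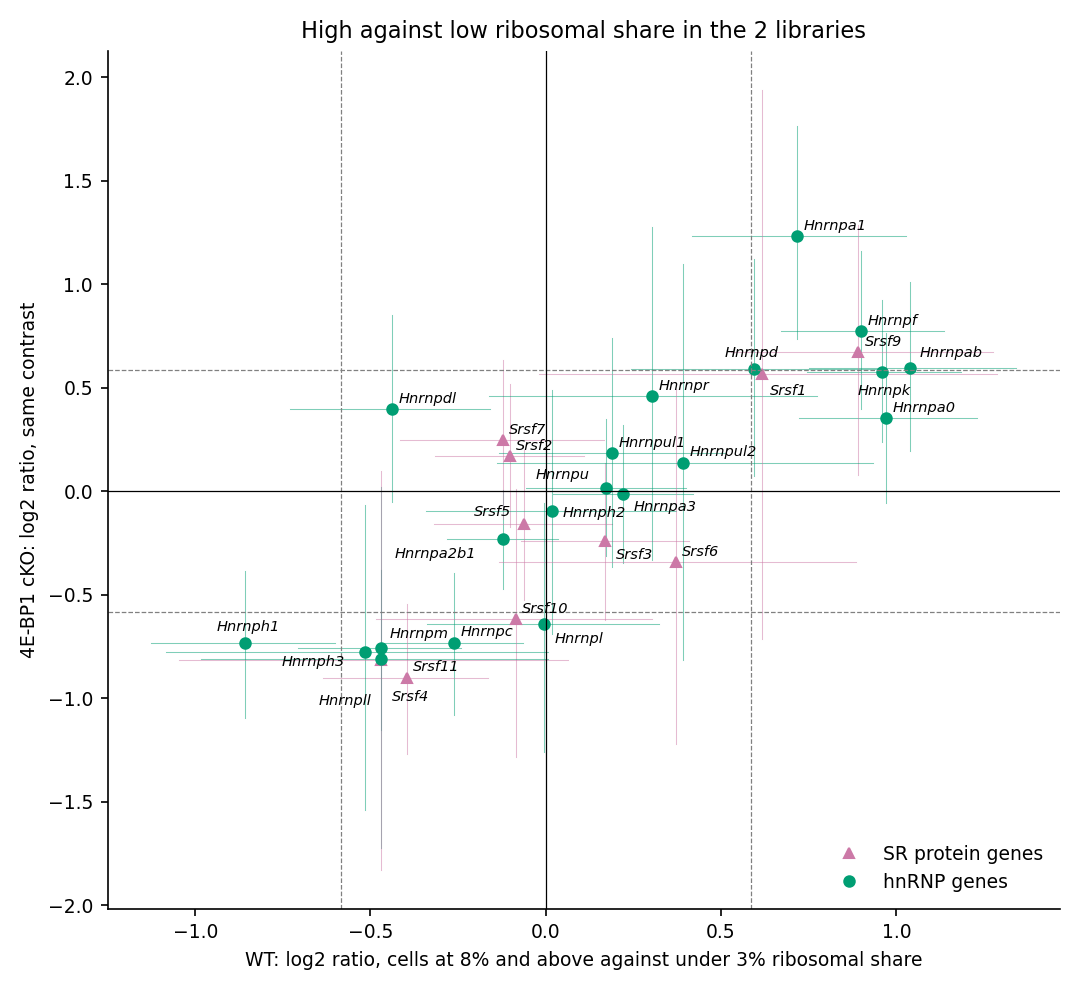
Log2 ratio of CPM + 1 in cells of at least 8% against cells under 3% ribosomal share, in WT (horizontal) and 4E-BP1 cKO (vertical), for 30 members; lines are exact 95% intervals of the ratio of CPM and dashed lines mark 1.5-fold. Hnrnpa1, Hnrnpf, Srsf9, Hnrnpab and Hnrnpd lie past 1.5-fold at the upper right and Hnrnph1 at the lower left.

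The members with the highest mean ratios of high to low ribosomal share were Hnrnpa1, Hnrnpf, Hnrnpab, Srsf9 and Hnrnpk. Hnrnpa1, a shuttling hnRNP that antagonizes SR proteins at splice sites and also binds structured leader sequences of mRNAs, had 101, 136, 172 and 146 CPM in the classes of WT in ascending order, and 87.9, 181, 183 and 277 CPM in 4E-BP1 cKO. The ratio of high to low was 0.72 on the log2 scale in WT, with an interval of the fold from 1.34 to 2.04, and 1.23 in 4E-BP1 cKO (1.66 to 3.40). Its level under 3% was the lowest in each library.

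Hnrnpab, which binds AU-rich RNA, had 96.0, 146, 196 and 207 CPM in WT and 163, 205, 251 and 238 CPM in 4E-BP1 cKO. The log2 ratio was 1.04 in WT (fold 1.68 to 2.54), the highest of the members there, and 0.60 in 4E-BP1 cKO (1.14 to 2.01). The intervals of the 2 libraries did not overlap under 3% or at 3 to 8%, where Hnrnpab was higher in 4E-BP1 cKO.

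Hnrnpf, which binds G-tracts, gave 161, 213, 288 and 363 CPM in WT and 176, 236, 293 and 325 CPM in 4E-BP1 cKO, with log2 ratios of 0.90 (fold 1.59 to 2.20) and 0.77 (1.32 to 2.24). It climbed from class to class in both libraries. Srsf9, the SR protein most like Srsf1 in its RNA-binding domains, had 64.3, 113, 121 and 116 CPM in WT and 75.4, 125, 135 and 79.3 CPM in 4E-BP1 cKO, with log2 ratios of 0.89 (fold 1.44 to 2.42) and 0.67 (1.06 to 2.44). Srsf9 had already reached most of its level at 3 to 8%.

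Hnrnpk had 177, 285, 347 and 343 CPM in WT and 230, 362, 324 and 396 CPM in 4E-BP1 cKO. The log2 ratio was 0.96 in WT (fold 1.68 to 2.27) and 0.58 in 4E-BP1 cKO (1.18 to 1.90), just short of 1.5-fold in 4E-BP1 cKO. Hnrnpa0, an A/B hnRNP encoded by 1 exon that binds AU-rich elements of inflammatory mRNAs, had log2 ratios of 0.97 and 0.35 (fold 0.962 to 1.70 in 4E-BP1 cKO), and Hnrnpd, the AU-rich element binder AUF1, of 0.59 and 0.59.

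The genes that were lower at high ribosomal share included Hnrnph1, a G-tract binder close to Hnrnpf in sequence. Hnrnph1 had 278, 225, 170 and 80.6 CPM in WT and 357, 231, 197 and 262 CPM in 4E-BP1 cKO. Its log2 ratio was −0.86 in WT (fold 0.458 to 0.659) and −0.73 in 4E-BP1 cKO (0.468 to 0.765). So the closely related Hnrnpf and Hnrnph1 had ratios of opposite sign in both libraries, with intervals that did not overlap.

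Srsf11 had 272, 234, 212 and 186 CPM in WT and 370, 257, 214 and 151 CPM in 4E-BP1 cKO, with log2 ratios of −0.40 (fold 0.644 to 0.892) and −0.90 (0.415 to 0.685). Each step was downward in both libraries. Hnrnph3, of the same family as Hnrnph1, had 56.8, 66.9, 41.6 and 30.2 CPM in WT and 89.7, 64.6, 47.9 and 63.4 CPM in 4E-BP1 cKO, with log2 ratios of −0.52 (fold 0.472 to 1.004) and −0.78 (0.343 to 0.954).

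Srsf4 had 53.6, 42.7, 44.0 and 15.1 CPM in WT and 55.6, 47.4, 25.4 and 47.6 CPM in 4E-BP1 cKO, with log2 ratios of −0.47 (fold 0.484 to 1.05) and −0.81 (0.281 to 1.07). Hnrnpll, known for CD45 exon choice in lymphocytes, had 67.0, 56.9, 47.5 and 50.4 CPM in WT and 66.4, 40.2, 42.3 and 23.8 CPM in 4E-BP1 cKO, with log2 ratios of −0.47 (fold 0.506 to 1.004) and −0.81 (0.302 to 1.02). The intervals of Srsf4 and Hnrnpll held 1 in both libraries and that of Hnrnph3 in WT. Hnrnpc had 352, 334, 295 and 287 CPM in WT and 380, 333, 231 and 222 CPM in 4E-BP1 cKO, with log2 ratios of −0.26 (fold 0.726 to 0.957) and −0.73 (0.473 to 0.761), each class lower than the one before. In WT the ratio of Hnrnpc was close to the median of all genes, −0.25. With totals without ribosomal protein and mitochondrial genes its ratios were −0.09 and −0.55, and with TMM factors −0.04 and −0.47. Hnrnpm, which binds GU-rich RNA, had −0.47 and −0.76.

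The most abundant member, Hnrnpa2b1, had 517, 476, 478 and 463 CPM in WT and 623, 583, 561 and 444 CPM in 4E-BP1 cKO. Hnrnpa3 had 281, 258, 339 and 282 CPM and 296, 309, 304 and 262 CPM. Srsf2 and Srsf3 were highest in the middle. Srsf2 had 290, 343, 289 and 191 CPM in WT and 258, 421, 344 and 143 CPM in 4E-BP1 cKO, and Srsf3 had 204, 292, 234 and 212 CPM and 253, 356, 242 and 135 CPM. Srsf5 had 200, 210, 206 and 131 CPM in WT and 267, 243, 245 and 222 CPM in 4E-BP1 cKO.

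Of the 3 classes under 14%, 7 members were highest under 3% in both libraries, beside 34.4% of 6525 genes. A further 5 (Hnrnph2, Hnrnpu, Hnrnpul2, Srsf2 and Srsf3) were highest at 3 to 8%, beside 10.5%, and 7 (Hnrnpa0, Hnrnpa1, Hnrnpab, Hnrnpf, Hnrnpr, Hnrnpul1 and Srsf9) at 8 to 14%, beside 17.9%. The other 11 had their highest class in different places. Between 3 to 8% and under 3%, 3 of 30 members were past 1.5-fold in WT, beside 36.4% of genes: Srsf9, Hnrnpk and Hnrnpab, all higher. In 4E-BP1 cKO 9 were, beside 44.8%, with Hnrnpa1, Srsf2, Srsf9, Hnrnpk, Hnrnpd, Srsf1 and Hnrnpul2 higher and Hnrnph1 and Hnrnpll lower.

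**Figure D4:**
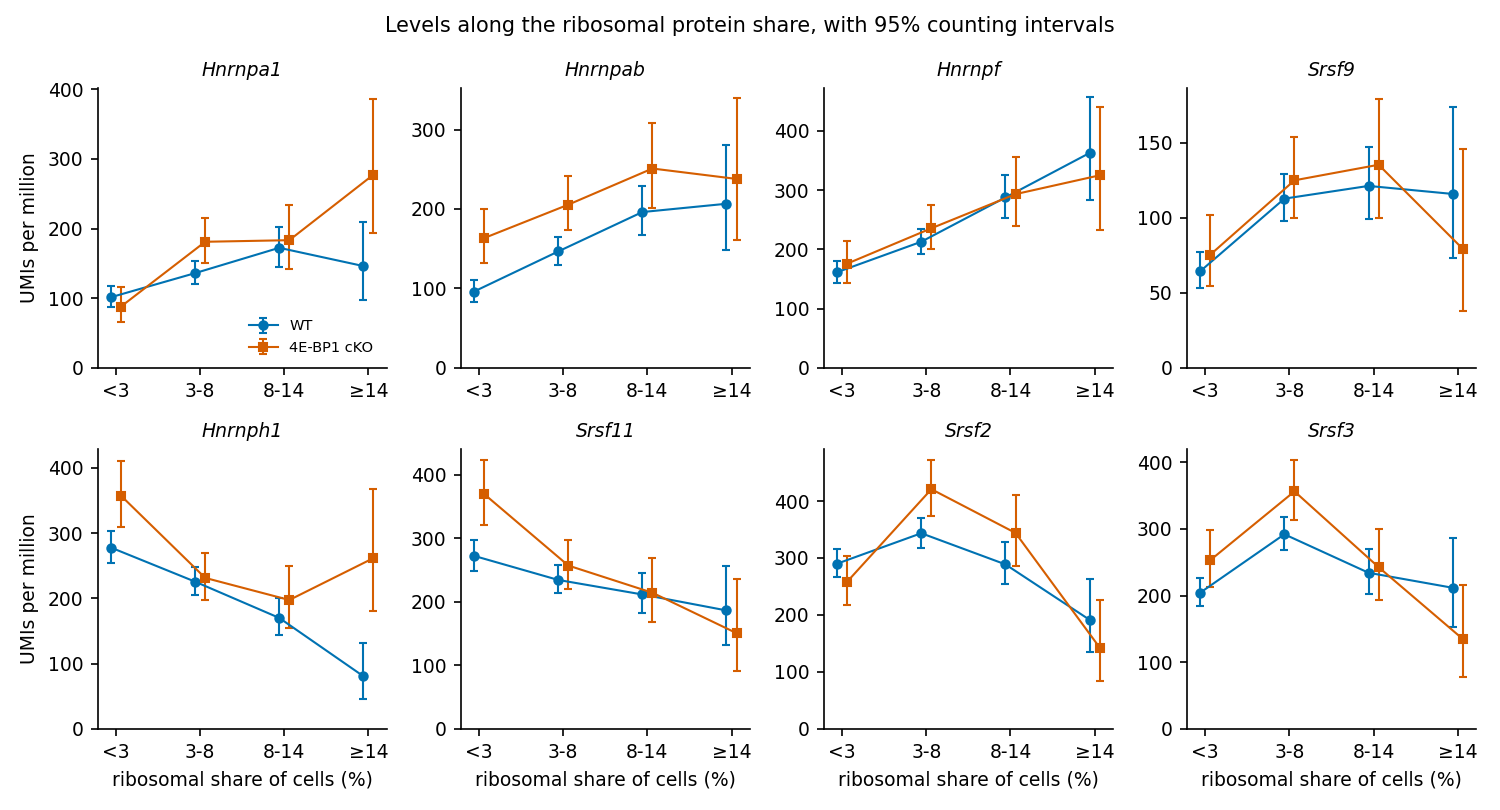
CPM of 8 members along the 4 classes of ribosomal share, for WT (circles) and 4E-BP1 cKO (squares), with exact 95% Poisson intervals. Hnrnpa1, Hnrnpab, Hnrnpf and Srsf9 are lowest under 3% in WT, Hnrnph1 and Srsf11 are highest there in both libraries, and Srsf2 and Srsf3 are highest at 3 to 8%.

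Genes of large span tended to be lower at high ribosomal share, and the rank correlation was nearer 0 among the members. Over 4761 genes with at least 200 UMIs, Spearman's rho of gene span with the log2 ratio was −0.65 in WT and −0.64 in 4E-BP1 cKO, and over 29 members −0.24 and −0.30. For the number of exons rho was −0.37 over all such genes and −0.25 over the members, in both libraries. For transcript length it was −0.41 over all such genes in both, and 0.15 in WT and 0.08 in 4E-BP1 cKO over the members. On 29 members rho is imprecise. These are correlations across genes of the same libraries. The members are short, with a median span of 11272 bases beside 37088. Spans of the members ran from 2678 bases (Hnrnpa0) to 39226 (Hnrnpm), and the part of span in the ratios was not tested. Of the lowest mean ratios, Hnrnpll spans 32782 bases, Srsf4 28196, Srsf11 25753, Hnrnph1 11272 and Hnrnph3 9317. Of the highest, Hnrnpf spans 25283 bases, Hnrnpk 12212, Hnrnpab 6782, Hnrnpa1 6756 and Srsf9 6681. Hnrnpm and Hnrnpc, also lower in both libraries, span 39226 and 30663 bases. Hnrnpul1 and Hnrnpr, higher in both libraries, span 35108 and 35040 bases.

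Other splicing genes gave a wider frame. Their counts past 1.5-fold stand beside 20.4% of all genes higher and 34.8% lower in WT, and 21.7% and 37.8% in 4E-BP1 cKO. Of 34 core spliceosome genes (Sm proteins, SF3 and U5 components), 16 were past 1.5-fold higher and 3 lower in WT, with a median log2 ratio of 0.49, and of 29 with enough UMIs 15 were higher and 1 lower in 4E-BP1 cKO, with a median of 0.81. The small Sm protein genes led, on low counts under 3%. Snrpe had log2 ratios of 2.81 (fold 4.79 to 12.1) and 2.02 (2.12 to 9.11). Snrpg had 2.62 (4.76 to 8.50) and 3.42 (6.28 to 21.5), and Snrpd2 2.26 (2.98 to 9.41) and 2.80 (2.73 to 30.8). In 4E-BP1 cKO cells under 3%, Snrpd2 had 7.18 CPM, where 3 UMIs give 5.38 CPM. Among 15 SR-related genes 0 were past it upward and 2 downward in WT, and 0 and 5 (33.3%, near the share of all genes) in 4E-BP1 cKO, with medians of −0.20 and −0.43. With TMM factors these medians were 0.022 and −0.17, with 1 gene higher and 0 lower in each library. Of all genes, TMM factors gave 26.3% higher and 25.9% lower in WT, and 27.9% and 26.7% in 4E-BP1 cKO. Tra2a, a splicing activator, had −0.75 and −0.59, and Luc7l2, of the U1 particle, −0.67 and −0.81. Among 7 genes of the kinases and the importin of SR proteins, 0 were higher and 3 lower (42.9%) in WT. In 4E-BP1 cKO 1 was higher and 4 were lower. With TMM factors 0 were higher and 2 lower in WT, and 2 and 2 in 4E-BP1 cKO. The lower genes (28.6%) were then near the share of all genes in both libraries. Srpk2, which phosphorylates SR proteins in the cytoplasm, had −1.01 and −0.89. Of 14 hnRNP-like genes outside the names, 4 were higher and 3 lower in WT, and of 13 with enough UMIs the same numbers were in 4E-BP1 cKO, with medians of 0.14 and −0.22, or 0.36 and 0.040 with TMM factors. Raly, close to Hnrnpc, had 1.43 and 1.58. The nuclear RNA Malat1, on whose speckles SR proteins gather, had log2 ratios of −1.13 and −0.75, from 46786 CPM under 3% to 16508 CPM at 14% or more in WT. Neat1, the other nuclear RNA listed, had −0.14 in WT (fold 0.804 to 1.03) and −0.95 in 4E-BP1 cKO (0.403 to 0.661).

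The genes whose level across the 8 combinations of library and class was most like the SR sum, by Pearson's r of log2(CPM + 1) among 4858 genes, were Lpcat2 (0.99), Uba2 (0.97), Atp6v0b (0.96), Taf7 (0.96) and Cyfip1 (0.95). For the hnRNP sum they were Tgoln1 (0.93), Efhd2 (0.91), Atf3 (0.90), Atxn2l (0.89) and Eif5 (0.89). The 8 points come from 2 libraries. Among 4858 genes on 8 points, high values of r can arise by chance, which was not tested.

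Between the libraries 0 of 30 members were past 1.5-fold over all kept cells, beside 15.6% of 11784 genes with at least 20 UMIs and 4.40% of 4887 genes with at least 200 UMIs, of which 29 are members. The UMIs of the target gene Eif4ebp1 were 95 in WT and 51 in 4E-BP1 cKO, or 19.8 and 29.4 CPM. Reads at the 3′ end do not check the deleted part, and the genotype of the cells was not checked by these data. The median log2 ratio of 4E-BP1 cKO against WT was 0.14 for the members and −0.05 for all genes. Above 0 were 22 of the 30 members (73.3%), beside 43.9% of all genes, and with the other scalings 22 stayed above 0 and 5 below. The SR genes together gave 1472 CPM in WT and 1711 CPM in 4E-BP1 cKO, and the hnRNP genes 3615 and 4019 CPM.

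Hnrnpab came closest to the limit, with 138 CPM in WT and 204 CPM in 4E-BP1 cKO, a fold of 1.47 (1.29 to 1.68). Srsf7, an SR protein with a zinc knuckle that acts in export and polyadenylation, had 163 and 234 CPM, a fold of 1.43 (1.27 to 1.62). Hnrnpd had 103 and 136 CPM, a fold of 1.32 (1.13 to 1.55), and Srsf5 202 and 250 CPM, a fold of 1.23 (1.10 to 1.38). The intervals of these 4 genes left out 1, with counting error alone considered. So did those of Hnrnpu, Hnrnpa2b1, Hnrnpk, Hnrnpa1, Hnrnph1, Srsf3 and Srsf11, also higher in 4E-BP1 cKO, with folds from 1.14 to 1.22. The share of all genes with such intervals is not given here. On the other side, Hnrnpll had 58.9 CPM in WT and 47.9 CPM in 4E-BP1 cKO, a log2 ratio of −0.29 (fold 0.628 to 1.04), and Hnrnpc, Hnrnpm and Hnrnpul1 had log2 ratios of −0.06, −0.08 and −0.05. These intervals held 1, which does not show that the levels were alike.

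The libraries also differed in ribosomal share: cells under 3% made up 57.3% of WT (54.4 to 60.2) and 47.4% of 4E-BP1 cKO (42.7 to 52.2). Within classes, 12 of 30 members were higher in 4E-BP1 cKO in each of the 3 classes under 14%, beside 14.6% of 6525 genes, and 2 (Hnrnpll and Hnrnpul1) were lower in each, beside 17.8%. The 12 were Hnrnpa2b1, Hnrnpab, Hnrnpd, Hnrnpf, Hnrnph1, Hnrnph2, Hnrnpu, Srsf3, Srsf5, Srsf7, Srsf9 and Srsf11. The difference was not even along the share: the median log2 ratio of the members was 0.17 under 3%, 0.16 at 3 to 8%, 0.02 at 8 to 14% and −0.06 at 14% or more, where 23 members had enough UMIs, beside −0.04, −0.03, −0.04 and −0.05 for all genes. Srsf7 had log2 ratios of 0.39, 0.47 and 0.82 in the first 3 classes, and Hnrnpab 0.76, 0.49 and 0.35. In cells of at least 14%, Hnrnph1 had 80.6 CPM from 16 UMIs in WT and 262 CPM from 33 UMIs in 4E-BP1 cKO, in the class with the T cell markers.

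**Figure D5:**
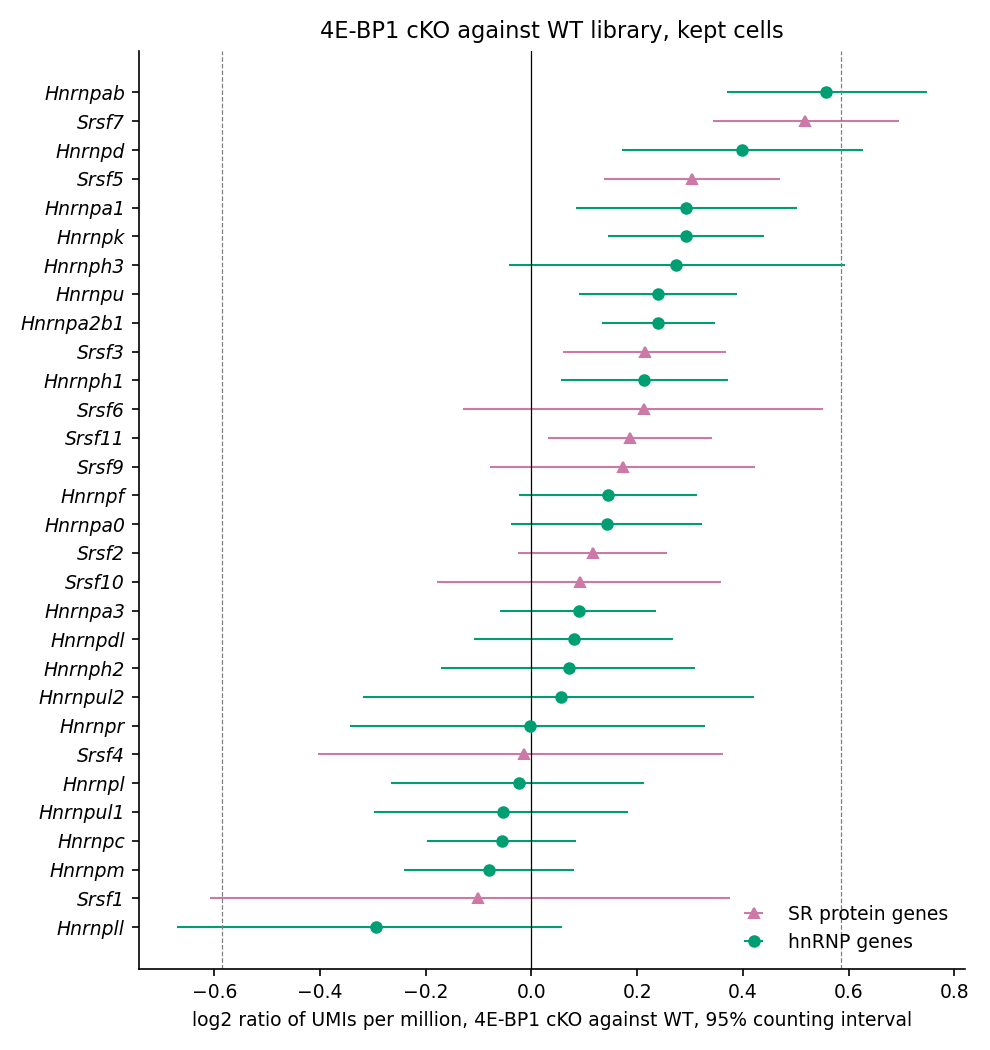
Log2 ratio of CPM + 1 in 4E-BP1 cKO against WT for 30 members over all kept cells, with exact 95% intervals of the ratio of CPM; dashed lines mark 1.5-fold. No point lies past the dashed lines, and 22 of 30 lie above 0.

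Some counts are uncertain. Hnrnpa1, Hnrnpa3 and Srsf3 have processed copies of near-identical sequence elsewhere in the genome. In the RefSeq annotation 11 members overlap other genes, among them Srsf2 with Mfsd11, Srsf9 with Gatc, Hnrnpu with Cox20 and Hnrnpab with Phykpl, and reads in the overlap may have been counted for either gene or left out.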

How the data were processed

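The deposited files held raw UMI counts per gene and barcode, which the authors had produced from 10x Genomics 3′ libraries using Cell Ranger, release 8.0.1 per the file headers, with mm10 as the genome build in the submitters' processing notes. The annotation release and the treatment of intronic reads are not given in the sources used here. Totals were 4803562 and 1734332 UMIs in kept cells, which set the counting error given beside each value.

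Members, lists and classes were chosen with earlier results of these data known. UMIs were summed over cells of a library and class and divided by all UMIs (CPM). Ratios were taken on log2(CPM + 1), so that low genes are understated. Intervals were exact Poisson for levels, conditional binomial for ratios and Clopper-Pearson for shares. Genes needed at least 20 UMIs in the cells compared. With 1 library per genotype no p-value was computed. Levels by class were given for the 4 members of each family with the most UMIs, for the 5 highest and 5 lowest mean ratios of high to low among those with at least 200 UMIs and the same sign in both libraries, and for any member past 1.5-fold between libraries with an interval that left out 1, of which there were 0. Those discussed beside these were named after their values were seen. Fewer cells and less RNA per cell cannot be told apart in sums. Doublets were kept, and Scrublet (scanpy 1.11.5) and edgeR (4.0.16) TMM factors were used in alternatives. Other steps used Python 3.11.15, numpy 2.4.6, scipy 1.17.1 and pandas 2.3.3. The script was tested on simulated data. Coordinates are of RefSeq GRCm38.p6.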

Additional observations from a re-analysis of the deposited data

Results flagged for a closer look

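Barcodes that failed the filters also held UMIs of the members, well above the level that 3 UMIs would give. The 69 WT barcodes that were left out gave a summed 4091 CPM (3723 to 4485) for the 31 genes, beside 5088 CPM in kept cells and 27.1 CPM for 3 UMIs. The 29 4E-BP1 cKO barcodes gave 3933 CPM (3309 to 4641), beside 5731 CPM in kept cells and 84.3 CPM for 3 UMIs. Both were lower than in the kept cells. Most had failed on mitochondrial share, 65 of 69 and 25 of 29. No member had intervals that left out 1 in opposite directions in the 2 libraries for high against low ribosomal share.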

How the results depend on the processing

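No paired analysis was possible because each genotype has 1 library and no comparison rests on a test. For high against low ribosomal share, the median log2 ratio of the members, 0.09 in WT and 0.00 in 4E-BP1 cKO, was 0.26 and 0.18 with totals without ribosomal protein and mitochondrial genes, 0.31 and 0.26 with TMM factors, 0.018 in WT with no minimum of UMIs, −0.39 in 4E-BP1 cKO with cells thinned to 872 UMIs (22 members left at the minimum), and 0.16 in 4E-BP1 cKO with cells under 2% and at least 5%. Members past 1.5-fold in both libraries were 3 of 22 with thinning instead of 6 of 30 (beside 41.7% of all genes), and 4 to 8 under the other alternatives. The shares of all genes under the alternatives are not given here, so these counts are not read as above or below them. Of 11 alternatives, the call held in 10 for Hnrnpf and for Srsf9, in 8 for Hnrnpa1 and for Hnrnph1, in 7 for Hnrnpd and in 6 for Hnrnpab; Hnrnpd was under the minimum of UMIs after thinning. Between the libraries the median of 0.14 was 0.066 with equal weight of the classes. The count of 0 past 1.5-fold between libraries was 1 with TMM factors and 1 with thinning (Hnrnpab in both), 1 with equal weight of the classes (Srsf7) and 1 with no minimum of UMIs (Srsf12). The median share of cells with a UMI was 10.3% in WT and 14.9% in 4E-BP1 cKO after thinning, an alternative chosen, as were all others on shares, after seeing the data. The cause of these changes was not tested, apart from the fewer UMIs that thinning leaves. Removing 4 and 11 Scrublet doublets, a mitochondrial limit of 10% or more than 500 detected genes moved none of the medians beyond their tolerance. Of 464 log2 ratios of the 16 named members under alternatives, 434 stayed within the counting interval and 30 moved out of it, 19 of these with thinning. The sign changed in 36, in 14 results whose size was at most 0.29 on the log2 scale. Members outside these 16 were not counted here, and larger ratios of high to low changed sign among them. With thinning, Hnrnpa0 went from 0.35 to −0.52 in 4E-BP1 cKO and stayed higher in WT. Srsf1 went from 0.62 to −0.56 in WT and from 0.57 to −0.98 in 4E-BP1 cKO, under the minimum of UMIs.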
